A study of Mus musculus with 16 samples.

Results

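Genes of vasoactive peptide signalling were examined in pulmonary endothelial cells (ECs), as a set of 10 genes out of the 54532 genes that the deposited tables list. The set holds the endothelin genes Edn1, Ece1 and Ednra, the adrenomedullin genes Adm, Calcrl and Ramp2, the natriuretic peptide receptor genes Npr1, Npr2 and Npr3, and the angiotensin-converting enzyme gene Ace. The 10 genes were chosen by name, and they were selected on LPS over saline values of these same libraries, so that comparison is described here without a test. RNA-seq had been done on bulk ECs in a pair of experiments, and each library is labelled as a sample of its own. The first experiment held wild type (WT) C57/BL6J mice, male and 8 weeks old, that had received saline (n = 4) or 10 mg/kg LPS (n = 6) into the trachea. LPS, lipopolysaccharide, is a bacterial cell wall component that induces acute lung injury. The second held Fgfr1 loxP/loxP littermates (n = 3) and Fgfr1 iΔEC/iΔEC mice (n = 3), in which tamoxifen switches on Cre under the VE-cadherin promoter and so removes floxed Fgfr1 from ECs. Both genotypes of the second experiment received 2 mg/kg LPS, and cells were taken 24 h after instillation in every group. ECs were enriched by depleting cells with the leukocyte protein CD45 and capturing cells with CD31 on magnetic beads, so each library is RNA of a captured fraction and not of single cells. Nothing in the labels says whether a library came from 1 mouse or from pooled mice, so the spread between libraries may hold technical as well as biological variation. Reads on genes numbered 13478726 to 18807007 in the saline group, 17840221 to 19043015 in the LPS group, 15969575 to 17002788 in loxP/loxP and 16642177 to 16943522 in iΔEC/iΔEC libraries.

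These peptides set vessel tone, fluid balance and endothelial permeability, and the pulmonary endothelium makes, trims and binds many of them. Endothelin-1 is cut from its precursor by endothelin-converting enzyme, the product of Ece1, and constricts vessels through the type A receptor encoded by Ednra. Atrial and B-type natriuretic peptides act through the guanylyl cyclase receptor encoded by Npr1, C-type natriuretic peptide acts through that of Npr2, and Npr3 encodes a receptor without a cyclase domain that clears the peptides. Adrenomedullin, encoded by Adm, acts on endothelial cells through the calcitonin receptor-like receptor (Calcrl) paired with the accessory protein Ramp2. Ace, the enzyme that makes angiotensin II and degrades bradykinin, is abundant on lung capillaries.

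On GRCm38, Edn1 lies at chr13:42301476-42307990 (plus strand), Ece1 at chr4:137862237-137965229 (plus strand) and Ednra at chr8:77663031-77724464 (minus strand). Adm lies at chr7:110627661-110629820 (plus strand), Calcrl at chr2:84330626-84425411 (minus strand) and Ramp2 at chr11:101246028-101259546 (plus strand). The receptor genes Npr1, Npr2 and Npr3 lie at chr3:90450591-90465866 (minus strand), chr4:43631935-43651244 (plus strand) and chr15:11839896-11907287 (minus strand), and Ace at chr11:105967945-105989964 (plus strand). All are protein-coding, and 8 of them (all but Calcrl and Ramp2) are overlapped by a gene on the opposite strand. Strandedness of the libraries is not given in the sources used here, so reads of such a gene could not be told apart from those of the member.

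The fraction carried its endothelial label in every group. Cdh5, which encodes VE-cadherin, ran from 669 to 792 FPKM (read fragments scaled by gene length and library size) in saline and from 245 to 520 FPKM in LPS libraries. Pecam1, which encodes CD31, ran from 339 to 516 FPKM and from 234 to 444 FPKM. In the second experiment Cdh5 ran from 306 to 434 FPKM in loxP/loxP and from 438 to 618 FPKM in iΔEC/iΔEC libraries. Other cells were present too, and they moved with the treatment. The epithelial gene Sftpc ran from 799 to 1971 FPKM in saline and from 96.1 to 407 FPKM in LPS libraries. It ran from 471 to 1043 FPKM in loxP/loxP and from 206 to 572 FPKM in iΔEC/iΔEC libraries. Over 10 endothelial marker genes, the mean of log2(FPKM + 1) was 7.96 ± 0.11 (SD, n = 4) in saline and 7.24 ± 0.40 (SD, n = 6) in LPS libraries, every LPS library was lower, and 0 of the 10 genes were called higher and 3 lower by limma. The summed level of this list, in which Cldn5 was most abundant, had a median of 3730 FPKM in saline and 2830 FPKM in LPS libraries. All 6 general leukocyte markers were called higher in LPS, with Coro1a most abundant and Ptprc, the gene of CD45, going from 3.53 to 11 FPKM in saline to 22.1 to 52.7 FPKM in LPS libraries. Macrophage markers were called higher for 7 of 8 genes (Lyz2 most abundant) and neutrophil markers for 6 of 7 genes (S100a9 most abundant). The summed macrophage list had a median of 693 FPKM in saline and 4170 FPKM in LPS libraries. In LPS libraries this was above the median sum of the endothelial list. Of 7 mural markers, 2 were called lower (Pdgfrb and Notch3), with Acta2 most abundant. Fibroblast markers gave 0 calls among 6 genes tested, epithelial markers 2 lower of 9 and lymphocyte markers 3 lower of 5. In addition, cardiac muscle markers gave 0 calls among 2 genes tested, and all 4 mesothelial genes stayed under the expression filter. In such bulk samples, fewer cells of a type and less RNA per cell cannot be told apart. The part that these cell types played in the levels below was not tested.

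Library 1 of the saline group stood apart from the other 3 saline libraries, and log2 fold changes of the members are therefore given with and without it. It had 280 FPKM of Edn1 against 43.5 to 57.7 FPKM in the others, 161 FPKM of Npr3 against 18.9 to 35.1 FPKM, and 6.96 FPKM of Adm against 0.588 to 0.91 FPKM. Its Calcrl level, 272 FPKM, was below the 510 to 520 FPKM of the others. Ramp3, whose product also pairs with Calcrl, was at 61.8 FPKM in it and at 4.68 to 6.25 FPKM in the others. Its neutrophil marker sum was 1363 FPKM, against 68.8 to 304 FPKM, and its endothelial marker sum was 5429 FPKM, against 3276 to 4066 FPKM. On the mean of log2(FPKM + 1), however, its endothelial list, at 8.01, lay within the 7.85 to 8.09 of the others. On that measure its epithelial list, at 5.98, lay above their 4.51 to 5.33, and its mural list, at 3.2, above their 1.9 to 2.59. Acta2, a smooth muscle actin, reached 77.7 FPKM there.

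Compared with the saline group, 7 of the 10 genes had a lower mean of log2(FPKM + 1) in the LPS group and 3 (Edn1, Adm and Ace) had a higher one. In 5 genes, Npr1, Npr2, Npr3, Ednra and Ece1, every LPS library lay below every saline library, which held for 16.7% of the 14893 genes tested. In 0 of the 10 every LPS library lay above every saline library, which held for 22.7% of genes. The members were picked with this contrast known, so nothing is read from these counts. The median log2 fold change of the 10 was -0.68, against 0.01 over all genes tested. In saline libraries the order of mean levels ran from Ace, Calcrl, Ramp2 and Ece1 through Edn1, Npr1 and Npr3 to Npr2, Ednra and Adm. The ranges of neighbours in that order overlapped except between Ace and Calcrl and between Npr3 and Npr2. Without saline library 1 the order was the same except that Npr1, with a mean of 77.5 FPKM, stood above Edn1, with 49.4 FPKM, and these 2 no longer overlapped. In LPS libraries Adm stood above Ednra and Npr2, without overlap between Adm and Ednra. FPKM is scaled by gene length, so these levels can be set against each other.

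**Figure D1:**
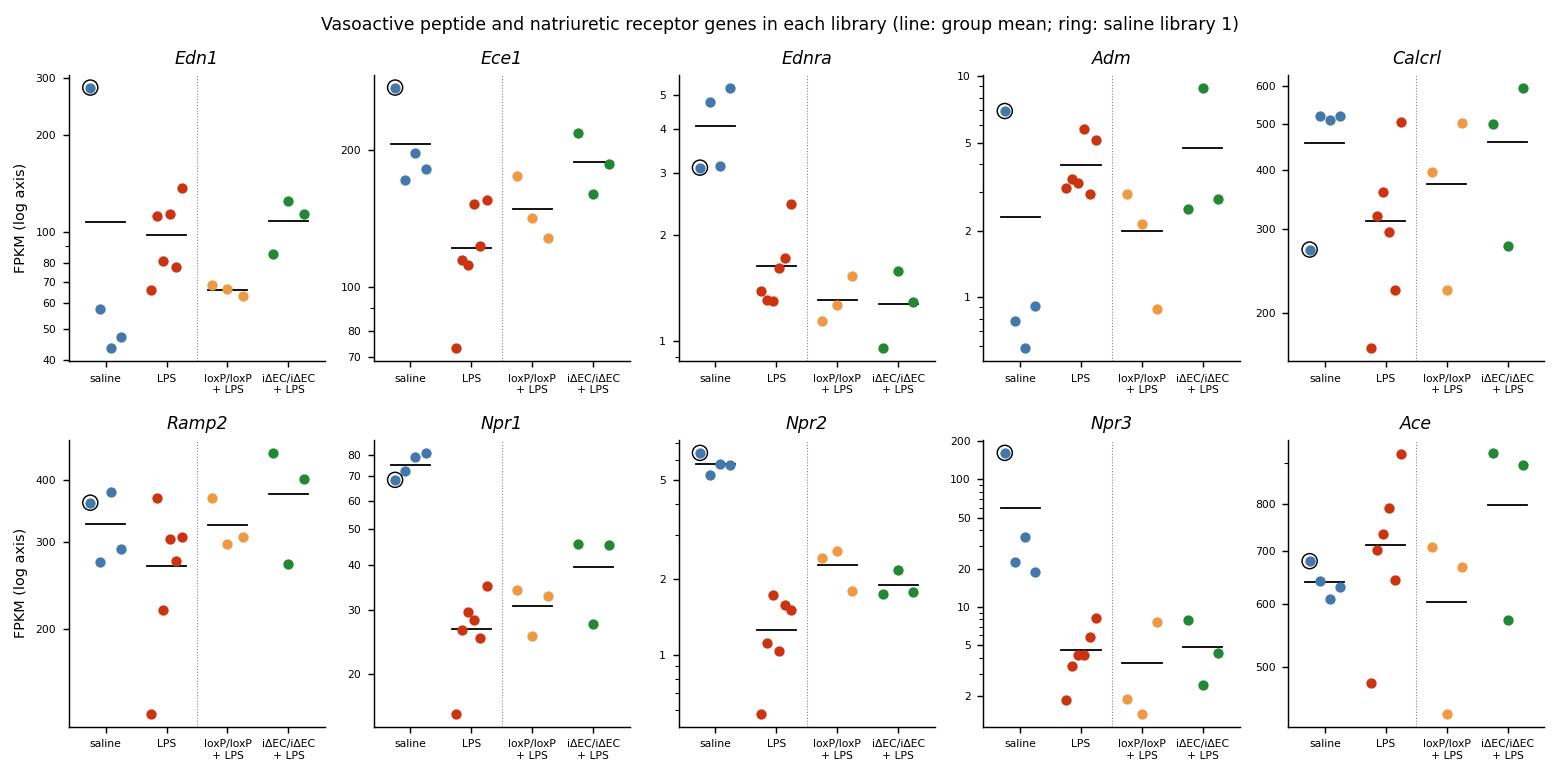
FPKM of the 10 genes on a log axis, with 1 point per library in the saline (n = 4), LPS (n = 6), loxP/loxP (n = 3) and iΔEC/iΔEC (n = 3) groups. Black lines are group means, the ring marks saline library 1, and the dotted line parts the experiments, which were normalised separately. Npr1, Npr2, Npr3, Ednra and Ece1 show no overlap between saline and LPS points.

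The natriuretic receptor genes had the largest differences among the members under median-of-ratios scaling of log2(FPKM + 1), and this order of sizes did not hold under each alternative. By limma-voom Adm, at 1.68, exceeded Npr1, at -1.53. As all 3 lay lower in the LPS group, the 250 bases before their RefSeq start sites (GRCm38.p6) are shown, to let their sequence composition be compared. They lie at chr3:90465867-90466116 on the minus strand for Npr1, chr4:43631685-43631934 on the plus strand for Npr2 and chr15:11907372-11907621 on the minus strand for Npr3. Each is written 5′ to 3′ along its gene, with CpG dinucleotides in capitals.
Npr1: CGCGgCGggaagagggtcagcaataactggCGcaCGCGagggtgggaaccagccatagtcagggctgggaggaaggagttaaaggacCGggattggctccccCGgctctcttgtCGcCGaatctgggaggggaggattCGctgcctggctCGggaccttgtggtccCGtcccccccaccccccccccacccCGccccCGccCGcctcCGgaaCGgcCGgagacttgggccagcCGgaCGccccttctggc
Npr2: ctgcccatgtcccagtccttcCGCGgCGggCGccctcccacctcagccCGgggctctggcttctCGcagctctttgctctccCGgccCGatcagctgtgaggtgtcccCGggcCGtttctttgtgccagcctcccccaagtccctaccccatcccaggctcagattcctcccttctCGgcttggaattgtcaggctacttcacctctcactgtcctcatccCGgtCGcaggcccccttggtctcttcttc
Npr3: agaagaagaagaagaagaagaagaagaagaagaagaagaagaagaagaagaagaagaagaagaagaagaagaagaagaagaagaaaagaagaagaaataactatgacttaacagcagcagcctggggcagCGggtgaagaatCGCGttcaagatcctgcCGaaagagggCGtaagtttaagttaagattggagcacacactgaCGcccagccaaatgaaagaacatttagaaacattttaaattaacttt
The stretches differed in composition. That of Npr1 was 70.4% GC with 21 CpG, that of Npr2 64.4% GC with 13 CpG, and that of Npr3 38.8% GC with 6 CpG, beginning in a long run of aag repeats. Over 32851 RefSeq start sites the medians were 52.4% GC and 6 CpG. The Npr3 start site used by RefSeq lies 84 bases upstream of the 5′ end of the gene in the deposited annotation, while those of Npr1 and Npr2 coincide with it.

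Sequences were found for 9 of the 10 genes. In their windows of 300 bases, from 250 before to 50 after the start, both strands were searched for AP-1 (TGANTCA), the cAMP response element (TGACGTCA), GATA (GATAA), the hypoxia response element core (ACGTG) and the kappaB consensus. Of all windows, 7.81% held the AP-1 motif, 1.79% the cAMP response element, 25.4% GATA, 19.6% the hypoxia core and 4.51% kappaB. The Edn1 window held a GATA match at bases 9 to 13 and a hypoxia core match at bases 22 to 26 after its start, both on the opposite strand. None of these letters were found in the windows of the other 8 genes, which says nothing about what binds there.

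Npr1, which had the highest mean of the 3 natriuretic receptor genes, was at 68.4, 72.4, 79.0 and 81.1 FPKM in the 4 saline libraries. In the LPS libraries it had a lowest value of 15.6, a median of 27.3 and a highest of 34.9 FPKM. The groups lay well apart, with means of 75.2 ± 5.88 (SD, n = 4) and 26.6 ± 6.37 FPKM (SD, n = 6), whose ratio was 0.354, and LPS over saline came to -1.50 on the log2 scale (SE 0.19). Its level was even among saline libraries, including library 1, and the log2 fold change without that library was -1.54.

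Npr2 was much less abundant, at 6.41, 5.24, 5.78 and 5.74 FPKM in the saline group, which is 396 to 541 reads. LPS libraries had a lowest value of 0.582, a median of 1.31 and a highest of 1.73 FPKM, on 50 to 147 reads. The groups were again apart, and the saline values lay close together. The means were 5.79 ± 0.482 (SD, n = 4) and 1.26 ± 0.428 FPKM (SD, n = 6), a ratio of 0.217, and the log2 fold change was -1.61 (SE 0.16). The added pseudocount of 1 shrinks the fold change of a gene at this level, and with a pseudocount of 0.1 it was -2.19. Without saline library 1 it was -1.57.

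Npr3, the clearance receptor gene, was at 161, 22.5, 35.1 and 18.9 FPKM in saline libraries, and its lowest, median and highest LPS values were 1.89, 4.22 and 8.19 FPKM. Library 1 was far above the other 3 saline libraries, and even the lowest saline value was over the highest LPS value. The log2 fold change was -2.94 (SE 0.53), the largest in size among the 10 genes. Without library 1 the saline mean was 25.5 ± 8.53 FPKM (SD, n = 3) in place of 59.4 ± 68.1 FPKM (SD, n = 4), and the log2 fold change was -2.27.

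The 3 receptor genes were also set out by their shares of their summed level, without a test. Their sum was 236, 100, 120 and 106 FPKM in the saline libraries and 18.1 to 44.6 FPKM, with a median of 33.0 FPKM, in the LPS libraries. Npr3 made up 68.3%, 22.4%, 29.3% and 17.9% of this sum in saline and 10.4% to 18.4% in LPS libraries. These shares overlapped between the groups, since saline library 4 lay within the LPS range. Npr1 made up 29.0% to 76.7% in saline and 77.3% to 86.3% in LPS libraries, and Npr2 never passed 5.42% in either group.

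**Figure D2:**
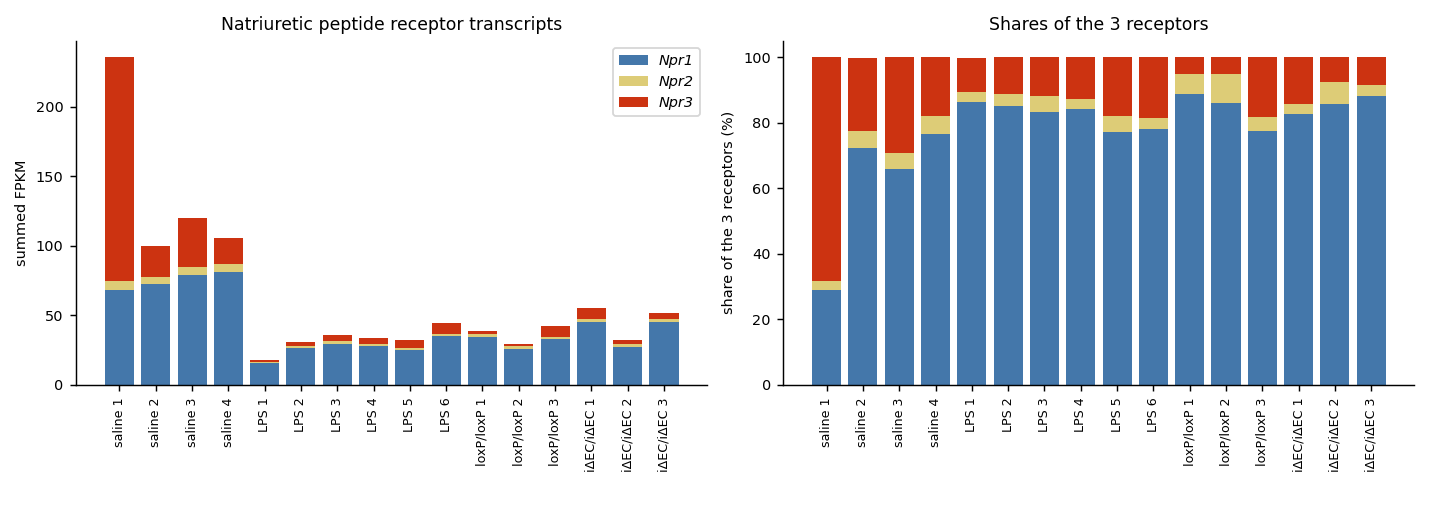
Natriuretic peptide receptor transcripts in each of the 16 libraries, as stacked FPKM of Npr1, Npr2 and Npr3 (left) and as the share of each in their sum in percent (right). The saline bars reach 100 FPKM or more and the LPS bars 44.6 FPKM or less, and Npr1 is the main receptor transcript in every library but saline library 1.

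Among the endothelin genes, the ligand gene depended on saline library 1, and the enzyme and receptor genes were lower in the LPS group. Edn1 was at 280, 57.7, 43.5 and 46.9 FPKM in the saline libraries. LPS libraries had a lowest value of 66.1, a median of 96.5 and a highest of 137 FPKM. All 6 lay above saline libraries 2 to 4 and below library 1, so the direction of the group means rests on that library. The mean FPKM was 107 ± 116 (SD, n = 4) in saline and 97.9 ± 26.9 (SD, n = 6) in LPS libraries. The mean of log2(FPKM + 1), in which 1 high library weighs less, pointed the other way, with a log2 fold change of 0.32 (SE 0.46), and the 2 measures thus gave no common direction. Without library 1 the saline mean was 49.4 ± 7.43 FPKM (SD, n = 3) and the log2 fold change was 0.94. Over all single libraries left out, it ran from 0.04, without saline library 3, to that value.

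Ece1, whose product cuts the endothelin precursor, was at 275, 172, 197 and 182 FPKM in saline and at a lowest of 73.3, a median of 119 and a highest of 155 FPKM in LPS libraries. The groups did not overlap, and the lowest saline value lay just over the highest LPS value. Ece1 had a log2 fold change of -0.77 (SE 0.22), and -0.63 without saline library 1. Ednra was at 3.11, 4.77, 3.14 and 5.24 FPKM in saline libraries, on 225 to 578 reads. LPS libraries had a lowest value of 1.30, a median of 1.50 and a highest of 2.45 FPKM, on 116 to 256 reads, again without overlap. The log2 fold change of Ednra was -0.93 (SE 0.17), and -1.03 without saline library 1. With a pseudocount of 0.1, which shrinks it less, it was -1.26 over all libraries. Ednra is best known from smooth muscle and other mural cells. The mural gene Pdgfrb, at 8.43 to 20.4 FPKM in saline and 4.2 to 11.3 FPKM in LPS libraries, was called lower. So was Notch3, at 3.33 to 8.62 FPKM and 1.25 to 5.15 FPKM, while Acta2, at 6.59 to 77.7 FPKM and 17.4 to 43.4 FPKM, was not called. Each of these mural genes overlapped between the groups. The mean of log2(FPKM + 1) over the 7 mural genes was lower in LPS libraries too, at 2.55 ± 0.53 (SD, n = 4) and 2.16 ± 0.28 (SD, n = 6), with overlapping groups. The part of mural cells in the Ednra difference was not tested.

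For adrenomedullin, the ligand was low and the receptor genes were abundant. Adm was at 6.96, 0.782, 0.588 and 0.910 FPKM in the saline libraries, the last 3 of which rest on 17 to 29 reads each. In LPS libraries it had a lowest value of 2.93, a median of 3.36 and a highest of 5.79 FPKM, on 85 to 165 reads. As with Edn1, every LPS library lay between saline library 1 and the other saline libraries. LPS over saline was 0.92 on the log2 scale (SE 0.40), and 1.46 without library 1, against a saline mean of 0.760 ± 0.162 FPKM (SD, n = 3). The LPS mean was 3.95 ± 1.21 FPKM (SD, n = 6). The pseudocount of 1 shrinks these fold changes too, and with 0.1 the value over all libraries was 1.44.

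Calcrl showed the converse for library 1, with 272, 520, 510 and 519 FPKM in the saline group and a lowest of 169, a median of 308 and a highest of 503 FPKM in the LPS group. Saline libraries 2 to 4 lay close together and above every LPS library. Its log2 fold change was -0.58 (SE 0.31), or -0.81 without library 1. Ramp2 was at 359, 273, 377 and 290 FPKM in saline and ran from 135 over a median of 289 to 367 FPKM in LPS libraries. Those ranges overlapped broadly, at a log2 fold change of -0.33 (SE 0.26), or -0.28 without library 1. Over all single libraries left out, it ran from -0.43 to -0.15, the latter without LPS library 1. In the annotation Ramp2 overlaps Vps25 on the same strand, so its count depends on how shared reads were assigned. Ramp2 made up 97.5% to 98.0% of the 3 Ramp transcripts in saline libraries 2 to 4, 85.0% in library 1 and 94.9% to 96.5% in LPS libraries.

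Ace had the highest level of the set and moved little. It was at 679, 642, 609 and 630 FPKM in saline libraries, and at a lowest of 479, a median of 718 and a highest of 924 FPKM in LPS libraries. The LPS libraries spread on both sides of the saline libraries. The means were 640 ± 29.4 (SD, n = 4) and 712 ± 149 FPKM (SD, n = 6), or 0.13 as log2 fold change (SE 0.21) and 0.16 without saline library 1. Over all single libraries left out, it ran from 0.05 to 0.24.

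The size of these differences depended on what the libraries were scaled to. Scaling on the 10 endothelial markers moved the median over all genes from 0.01 to 0.57 on the log2 scale. On that scale Npr3 was at -2.30, Npr2 at -1.10, Npr1 at -0.79 and Ednra at -0.42, so they stayed lower in LPS also relative to the endothelial markers. Ece1 came to -0.06, Calcrl to 0.14 and Ramp2 to 0.39, close to or above the marker genes, and Ace came to 0.85, Edn1 to 1.03 and Adm to 1.37. Adm was then larger in size than Npr1 and Npr2, and Edn1 and Ace larger than Npr1. Quantile normalization gave -0.20 for Edn1 and -0.27 for Ace, and scaling on total reads gave -0.08 for Ace, so the sign of these 2 genes turned with the scaling. The other members kept their sign under these last 2 scalings.

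**Figure D3:**
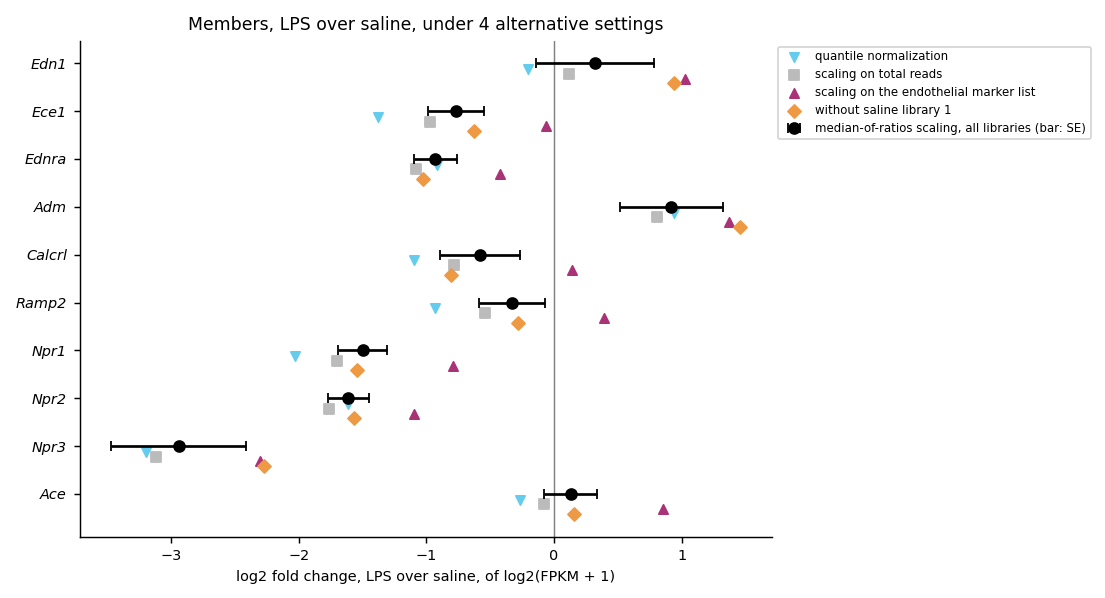
Log2 fold change of the 10 genes, LPS over saline, on the log2(FPKM + 1) scale. Black points with SE bars use median-of-ratios scaling and all 10 libraries, and coloured symbols give 4 alternatives. Npr1, Npr2, Npr3, Ednra and Ece1 lie below 0 and Adm above 0 under each setting drawn, while Edn1, Calcrl, Ramp2 and Ace change side.

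Around these members, 66 other genes of vasoactive peptide pathways were examined, in 7 lists. They had not been chosen for how they moved, but were listed with earlier results of these data known. Expression allowed 27 of the 66 to be tested. Of these, limma called 2 higher (7.41%) and 8 lower (29.6%) in LPS over saline where the p adjusted over all genes (Benjamini-Hochberg) did not exceed 0.05 and the log2 fold change reached 1 in size. Of all 14893 genes tested, 11.9% were called higher and 6.79% lower. Scaling on the endothelial list turned the balance, with 7 pathway genes called higher and 4 lower, beside 4342 and 206 among all genes. Of the 27 genes, 3 (Edn3, Prkg1 and Bdkrb1) reached the filter of 0.5 FPKM only through the group in which they were higher, so a difference was built into their entry. Among the 24 that reached it in each group, a count chosen after seeing the data, 2 were called higher (8.33%) and 6 lower (25%), beside 11.4% and 6.84% of all genes that did so. Their median log2 fold change was -0.59, beside 0.02 over those genes.

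Of the endothelin list, Ednrb and Edn3 were tested. Ednrb encodes the type B receptor, which lung ECs carry and which clears endothelin. It was at 48.1, 57.8, 88.3 and 59.6 FPKM in saline libraries, and at a lowest of 5.39, a median of 11.9 and a highest of 15.6 FPKM in LPS libraries, without overlap. Its log2 fold change was -2.44 (SE 0.28, limma adjusted p = 5.06e-05). Ednrb made up 91.9% to 96.6% of the summed endothelin receptor FPKM in saline and 79.5% to 91.1% in LPS libraries, so the type B transcript prevailed over Ednra in each library. Edn3, the endothelin-3 gene, was near the detection limit, with 1.02 to 1.72 FPKM in saline libraries and 0.108 to 0.243 FPKM, or 8 to 19 reads, in LPS libraries (log2 fold change -1.02, SE 0.12). It entered the test through its saline level alone. Its call was lost without saline library 1 (-0.97), without saline library 4 and after quantile normalization. The means were 1.37 and 0.158 FPKM, and the pseudocount of 1 shrinks this difference to near the fold limit. Over all libraries limma-voom and a pseudocount of 0.1 also called Edn3 lower.

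Of the natriuretic peptide list 5 genes were tested, and 1 was called higher and 3 lower, among them Prkg1, which passed the filter through its saline level alone. The 3 encode proteins that hydrolyse cyclic nucleotides or respond to them, and cyclic GMP is the messenger of the Npr1 and Npr2 receptors. Whether such genes were lower more often than others was not tested. Pde3a, a phosphodiesterase gene, went from 23.3 to 30.1 FPKM in saline libraries to 4.24 to 11.1 FPKM in LPS libraries (log2 fold change -1.87, SE 0.21). Pde5a, which encodes the cyclic GMP phosphodiesterase, went from 7.23 to 13.7 FPKM to 1.25 to 4.62 FPKM (-1.85, SE 0.24). Prkg1, a cyclic GMP-dependent kinase gene, was at a low 1.20 to 2.91 FPKM in saline and 0.174 to 0.465 FPKM in LPS libraries (-1.11, SE 0.16). Its call was lost without saline library 1 (-0.95). The pseudocount of 1 shrinks the difference of Prkg1 as well, whose means were 1.87 and 0.305 FPKM. Prkg2, also a gene of such a kinase, was not called (-0.63, SE 0.15) and overlapped between the groups, but limma-voom and a pseudocount of 0.1 called it lower. Furin, whose product cleaves many precursor proteins, rose from 12.4 to 21.8 FPKM to 30.5 to 50.5 FPKM (1.26, SE 0.19), a call that was lost after quantile normalization. The ligand genes Nppa, Nppb and Nppc had at most 3, 1 and 4 reads in any saline library and at most 2, 8 and 0 reads in any LPS library, so neither change nor stability of them could be read at this depth.

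In the renin-angiotensin list 7 genes were tested. Enpep, the gene of aminopeptidase A, which trims angiotensin II, fell from 5.20 to 8.16 FPKM to 0.981 to 2.96 FPKM (log2 fold change -1.38, SE 0.19). Anpep, the gene of aminopeptidase N, which acts on the next fragment and is also carried by myeloid cells, rose from 1.13 to 2.61 FPKM to 13.1 to 26.8 FPKM (2.90, SE 0.20). Its rise went along with that of the myeloid markers, for example Csf1r at 3.6 to 14.1 FPKM in saline and 128 to 303 FPKM in LPS libraries, and their part in it was not tested. The angiotensinogen gene Agt and the renin gene Ren1 did not reach the expression filter.

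Aplnr, the apelin receptor gene, showed the largest change in the 7 lists under median-of-ratios scaling, while after scaling on the endothelial markers Anpep, at 3.44, exceeded Aplnr, at -3.15. It was at 81.2, 120, 138 and 120 FPKM in saline libraries and at a lowest of 4.20, a median of 6.68 and a highest of 10.8 FPKM in LPS libraries. The log2 fold change was -3.84 (SE 0.24, limma adjusted p = 1.1e-06), against -0.81 (SE 0.33) for Apln, its ligand gene, which was not called. The Apln call depended on the setting, as without saline library 1 it came to -1.01 (limma adjusted p = 0.0275) and was called lower, as it was after quantile normalization and after scaling on total reads. After scaling on the endothelial markers Apln came to -0.12. In the adrenomedullin and CGRP list 5 genes were tested and Pam fell from 21.8 to 27.2 FPKM to 7.66 to 15.2 FPKM (-1.07, SE 0.16). Pam encodes the enzyme that amidates adrenomedullin and other peptides. Ramp3 and the scavenger receptor gene Ackr3 were not called, with log2 fold changes of -0.29 (SE 0.60) and 0.96 (SE 0.33). Without saline library 1 Ramp3 turned to 0.52 and was not called, and Ackr3 came to 1.34 and was called. Of the kinin list 5 genes were tested and 0 called on log2(FPKM + 1) with median-of-ratios scaling. Short of the fold limit, Xpnpep1 was higher (0.66, limma adjusted p = 0.0133), and Cpm (-0.84, limma adjusted p = 0.00187) and Xpnpep2 (-0.89, limma adjusted p = 0.00129) were lower. Both limma-voom and a pseudocount of 0.1 called Cpm and Xpnpep2 lower and Bdkrb1 higher, the last of which passed the filter through LPS libraries alone, and scaling on the endothelial markers called Bdkrb2 and Xpnpep1 higher. In the list of other peptides, which includes vasoactive intestinal peptide and vasopressin, 1 gene of 14, Vipr2, could be tested. It was not called, at -0.71, but was called lower by limma-voom and with a pseudocount of 0.1. After scaling on the endothelial markers Aplnr, Ednrb, Pde3a and Pde5a were still called lower. Enpep, at -0.83, then missed the fold limit but not the limit on the p (limma adjusted p = 0.0021), and Pam, at -0.39, missed both (limma adjusted p = 0.0733). Prkg1 at -0.78 and Edn3 at -0.75 missed the fold limit too.

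**Figure D4:**
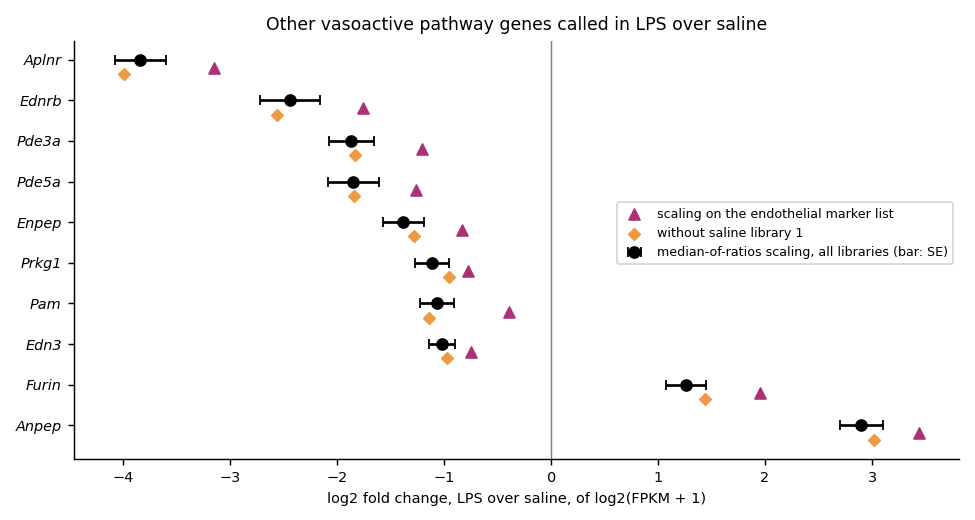
Log2 fold change, LPS over saline, of the 10 called genes from the 7 vasoactive pathway lists, on the log2(FPKM + 1) scale. Black points with SE bars are from all 10 libraries, triangles after scaling on the endothelial marker list and diamonds without saline library 1. Aplnr at -3.84 and Ednrb at -2.44 lie farthest below 0, Anpep at 2.90 farthest above.

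Genes with the pattern most like that of 4 members were looked up by Pearson r of log2(FPKM + 1), among genes that averaged 5 FPKM or more. These correlations share libraries, depth and cell content and are given as a description. Over the 10 libraries, where saline and LPS form separate groups, Npr3 was matched best by Baiap2 (r = 0.987), Tmcc3 (0.986) and 2510009E07Rik (0.982). Tmcc3 shared the high value of saline library 1, with 154 FPKM there and 36.9 to 41.3 FPKM in the other saline libraries. Edn1 was matched best by Arl4a (0.980), Vhl (0.963) and Ppp1r2 (0.943), and Adm by Adipor2 (0.981), Fkbp14 (0.979) and Cdkn1a (0.973). Cdkn1a, a cell cycle inhibitor gene, was at 463 FPKM in saline library 1, 30.2 to 34.5 FPKM in the other saline libraries and 113 to 267 FPKM in LPS libraries, the same order of groups as for Adm. Ednra was matched best by Kdm4b (0.974), 1190002N15Rik (0.974) and Prelp (0.963). Within the 6 LPS libraries alone the genes nearest to each member were others. They were Slc30a1 (0.992), Zbtb46 (0.990) and Pdgfrb (0.985) for Npr3, and Rchy1 (0.986), Rnf11 (0.983) and Mmp3 (0.977) for Edn1. For Adm they were Bnip3 (0.961), Myo1d (0.959) and Blzf1 (0.954), and for Ednra Epb41 (0.984), Ttll7 (0.982) and Mllt1 (0.980). These were picked as the highest of 7631 or 7632 genes over only 6 libraries, so no link is read from them.

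The second experiment asked what loss of endothelial Fgfr1 does under LPS. Fgfr1 itself was at 2.90, 2.91 and 2.59 FPKM in loxP/loxP and at 0.683, 1.41 and 1.15 FPKM in iΔEC/iΔEC libraries, lower in each of the latter. Its log2 fold change was -0.88 (SE 0.16), at a limma adjusted p of 0.962. The pseudocount of 1 shrinks this value at such levels. The ratio of the mean FPKM was 0.386, and the log2 ratios of FPKM by pair were -2.09, -1.05 and -1.17. No gene of 14945 was called by limma (0%), although 661 had an unadjusted p under 0.05, and limma-voom on the read numbers called 0 as well, with 608 at an unadjusted p under 0.05. With libraries of the same number paired, 0 were called and 1154 had an unadjusted p under 0.05.

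Of the 10 members, 8 had a positive and 2 (Npr2 and Ednra) a negative log2 fold change in iΔEC/iΔEC over loxP/loxP mice, and 0 were called. Their limma adjusted p ran from 0.962 to 0.993, and from 0.571 to 0.969 with the replicate number as a block. At an unadjusted p under 0.05 stood 1 member (Edn1), or 3 members in the paired fit (Edn1, Ece1 and Npr1), beside 4.42% and 7.72% of all genes. The median log2 fold change of the 10 was 0.33, beside 0.01 over all genes.

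Edn1 was the member whose groups did not overlap. It was at 68.2, 66.3 and 63.2 FPKM in loxP/loxP and at 85.2, 125 and 114 FPKM in iΔEC/iΔEC libraries. This gave a log2 fold change of 0.68 (SE 0.16, limma adjusted p = 0.962), and groups lay apart in 10.2% of all genes. Leaving out 1 library gave 0.57 to 0.85. The means were 65.9 ± 2.52 and 108 ± 20.4 FPKM (SD, n = 3 each).

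The other members overlapped between the genotypes, and for several the libraries of a number moved together. Ace was at 707, 438 and 667 FPKM in loxP/loxP and 927, 573 and 895 FPKM in iΔEC/iΔEC libraries, so both groups held a low second library. By pair the log2 ratios were 0.39, 0.39 and 0.42. Calcrl was at 396, 224 and 501 FPKM and at 499, 276 and 596 FPKM, with log2 ratios by pair of 0.34, 0.30 and 0.25. Ece1 and Npr1 were likewise higher in the iΔEC/iΔEC library of each pair, which makes 5 of 10 members with Edn1, Ace and Calcrl. Of all genes 18% were higher in each pair. The log2 fold changes were 0.40 (SE 0.30) for Ace, 0.29 (SE 0.40) for Calcrl, 0.34 (SE 0.18) for Ece1 and 0.32 (SE 0.23) for Npr1, and none passed the adjusted test. With 1 library left out they ran from 0.18 to 0.62, -0.04 to 0.62, 0.23 to 0.47 and 0.19 to 0.56 in the same order. Marker lists differed by pair as well. The endothelial mean of log2(FPKM + 1) was 7.54, 7.18 and 7.31 in loxP/loxP and 7.80, 7.28 and 7.71 in iΔEC/iΔEC libraries, higher in each pair and by 0.25 on average. The epithelial mean was 4.77, 5.32 and 5.56 and then 3.99, 4.85 and 4.63, lower in each pair and by 0.73 on average. The neutrophil, cardiac muscle and mural means were lower in each pair too, with average differences of -0.49, -0.56 and -0.16. So was the mesothelial mean (-0.09), on genes under the expression filter. Leukocyte, macrophage, lymphocyte and fibroblast means went both ways. Groups overlapped in all lists but the mesothelial one, and 0 genes of any marker list were called. The part of these shifts in the members' values was not tested. Scaling on the endothelial list moved the median over all genes from 0.01 to -0.19, so it lowered genes in general. On that scale Ace came to 0.15, Calcrl to 0.04, Ece1 to 0.09 and Npr1 to 0.08, and Edn1 to 0.43.

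Npr3 and Adm varied most within genotypes. Npr3 was at 1.89, 1.47 and 7.65 FPKM in loxP/loxP and 7.87, 2.44 and 4.36 FPKM in iΔEC/iΔEC libraries, higher in 2 of 3 pairs. Adm was at 2.94, 2.14 and 0.884 FPKM and at 2.51, 8.88 and 2.77 FPKM, also higher in 2 of 3 pairs. Their log2 fold changes of 0.47 (SE 0.55) and 0.83 (SE 0.46) lay within less than 2 SE of 0. With 1 library left out they ran from 0.12 to 1.03 for Npr3 and from 0.35 to 1.10 for Adm. Ramp2 (0.18, SE 0.24), Npr2 (-0.17, SE 0.14) and Ednra (-0.03, SE 0.15) differed by little more than their SE or less. With 1 library left out, Ramp2 ran from 0.03 to 0.40 and Npr2 from -0.28 to -0.10. Npr2 was lower in the iΔEC/iΔEC library of each pair, with log2 ratios of -0.48, -0.26 and -0.01, and was the member for which this held, beside 12.8% of all genes. Of the 25 pathway genes tested here 0 were called. At an unadjusted p under 0.05 stood Ackr3 and Npy1r, beside the 4.42% of all genes, and in the paired fit Aplnr as well, beside 7.72%. Npy1r reached the expression filter through the loxP/loxP group alone, with means of 1.22 and 0.436 FPKM, so its p is not read. Aplnr was at 8.27, 4.35 and 9.99 FPKM in loxP/loxP and at 6.26, 2.98 and 5.13 FPKM in iΔEC/iΔEC libraries, lower in each pair, with a limma adjusted p of 0.58 in the paired fit.

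**Figure D5:**
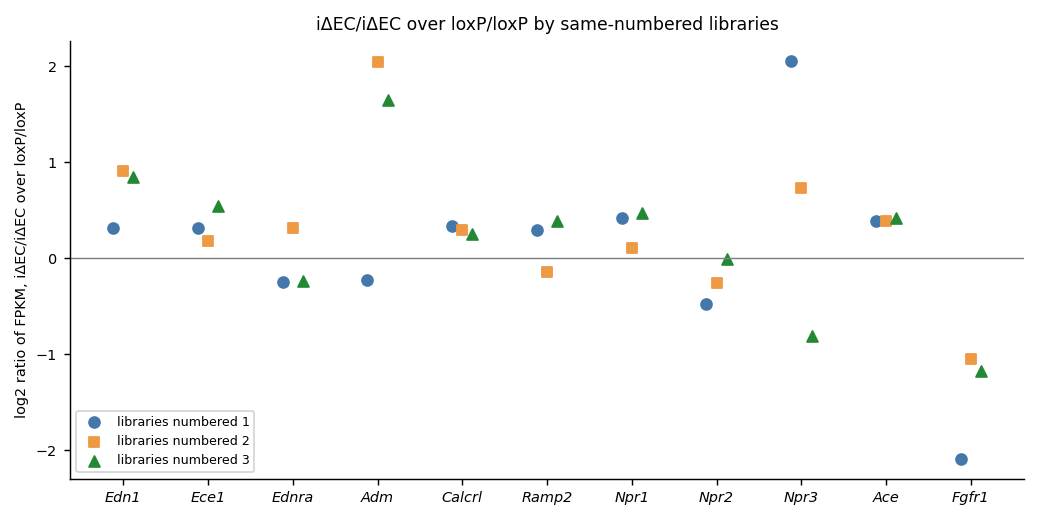
Log2 ratio of FPKM, iΔEC/iΔEC over loxP/loxP, for libraries of the same number (3 pairs) in the 10 genes and in Fgfr1. Points above 0 are higher in the iΔEC/iΔEC library. Edn1, Ece1, Calcrl, Npr1 and Ace lie above 0 in each pair, Fgfr1 lies below 0 in each pair, and Npr3 and Adm spread the most.

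Levels of the members were set side by side over both experiments. These differ in dose, genotype, reported tamoxifen treatment and normalisation together and were not tested against each other. On 1 scale for all 16 libraries, fitted to the read numbers, the 6 libraries of the second experiment lay below each of the 4 saline libraries for 4 members, namely Npr1, Npr2, Npr3 and Ednra, and for 13.9% of the 14192 genes tested in both experiments. The members were picked with their LPS over saline values known, so nothing is read from the count. Npr1 averaged 77.4 scaled FPKM in saline, 27.1 in LPS, 30.9 in loxP/loxP and 39.1 in iΔEC/iΔEC libraries. Npr2 averaged 5.96, 1.28, 2.28 and 1.88, Npr3 averaged 61.1, 4.72, 3.69 and 4.84, and Ednra averaged 4.19, 1.66, 1.32 and 1.27 scaled FPKM in the same order. For the other 6 members the saline range and that of the second experiment overlapped, and for 0 members did the second experiment lie wholly apart from the LPS group, beside 9.1% of genes. For Edn1 the overlap with saline rests on saline library 1. Saline libraries 2 to 4 were at 44.5 to 59.4 scaled FPKM of Edn1, and the second experiment at 63.7 to 124.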

How the data were processed

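Bulk RNA-seq had been done on CD31-captured, CD45-depleted lung cells, in 16 libraries. Per the methods of the study and the submitters' processing notes, the authors aligned reads to GRCm38 with HISAT2 2.0.5 and counted them per gene with featureCounts 1.5.0-p3. The annotation release, strandedness and trimming are not given in the sources used here. The authors deposited FPKM and gene length in a table per experiment. Each FPKM was a whole multiple of the value of 1 read within a set tolerance (100.0% of values), which gave the read numbers. The tolerance was 0.01 reads and widened in proportion to the read number at high counts, where it tests little. The FPKM of the first experiment already carried median-of-ratios scaling, so values are printed as deposited.

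The members and gene lists were chosen with earlier results of these data known. Named were the 10 members, pathway genes called in LPS over saline at a mean of at least 1 FPKM in 1 group, the 3 genes most correlated with Npr3, Edn1, Adm and Ednra, and Fgfr1. Other pathway and marker genes in the text were chosen after their values were seen. Genes averaging 0.5 FPKM or more were compared by limma 3.58.1 (R 4.3.3) on log2(FPKM + 1) with a trend, after median-of-ratios scaling, within each experiment. Genes were called where the Benjamini-Hochberg p did not exceed 0.05 and the log2 fold change reached 1 in size. The script was tested on simulated data. No pair of libraries of a group agreed within sampling noise (27 pairs, lowest chi-square per degree of freedom 7.94). Reads are not independent molecules, and precision at low levels is limited by the reads given.

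Same-numbered loxP/loxP and iΔEC/iΔEC libraries deviated from their group means together (r = 0.178 to 0.248 over genes, and -0.14 to -0.041 for other numbers), so the pairing, taken from the sample titles, was also fitted as a block. The alternatives were other pseudocounts, filters and scalings, limma-voom on reads, leaving out each library and no fold limit. Gene positions of the 10 members were the same in GENCODE M21. There, 8 members are overlapped by a gene on the opposite strand and 1 (Ramp2) by one on the same strand. Promoter sequences are from RefSeq (GRCm38.p6). Python 3.11.15, pandas 2.3.3, numpy 2.4.6 and matplotlib 3.10.9 were used.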

Additional observations from a re-analysis of the deposited data

Results flagged for a closer look

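In the first experiment 60 values, each a gene or marker list within a group, were searched for an outlying library by Dixon's test at the 95% level, which chance passes for about 1 in 20. There were 8. Saline library 1 accounted for 6 of them, with Edn1 at 280 FPKM (others 43.5 to 57.7), Adm at 6.96 FPKM (others 0.588 to 0.91), Calcrl at 272 FPKM (others 510 to 520), Furin at 21.8 FPKM (others 12.4 to 13.2), Pam at 21.8 FPKM (others 26.3 to 27.2) and a cardiac muscle marker mean of 1.37 on the log2 scale (others 0.399 to 0.553). Saline library 3 accounted for the other two, with a lymphocyte marker mean of 1.72 (others 3.18 to 3.31) and a fibroblast marker mean of 2.21 (others 2.7 to 2.77).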

How the results depend on the processing

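In LPS over saline 1768 genes were called higher and 1011 lower. Scaling on the endothelial list gave 4342 and 206, and no fold limit 4399 and 3529. Lower calls numbered 2008 by limma-voom and 1840 at a pseudocount of 0.1. Quantile normalization gave 1416 and 1322, and total reads 1375 and 1445. Of the pathway genes, 2 were called higher and 8 lower. Higher calls numbered 4 by limma-voom, 4 at a pseudocount of 0.1, 1 after quantile normalization (Furin was lost, and among lower calls Edn3 gave way to Apln), 7 after endothelial scaling and 8 with no fold limit, and lower calls 14, 13, 8, 4 and 14. Leaving out 1 library gave 2 to 4 higher and 7 to 9 lower calls. Without saline library 1 or LPS library 3 there were 4 higher, with Atp6ap2 and Ackr3 added. Prkg1 and Edn3 were not called lower without saline library 1, where Apln was added, Edn3 not without saline library 4, and Pam not without LPS library 1. Same-numbered saline and LPS libraries share only a number (r of deviations -0.209 to 0.097), and the replicate block on numbers 1 to 4 gave 1962 higher and 1041 lower genes and 4 higher pathway genes. In iΔEC/iΔEC over loxP/loxP the replicate block changed no call, and 0 genes were called under each setting. There the sign turned for Ednra (0.05 after quantile normalization, -0.12 to 0.08 leaving out 1 library), for Calcrl (-0.04 to 0.62 leaving out 1 library) and for Ramp2 (-0.07 after endothelial scaling, and -0.07 with the block added, a setting chosen after seeing the data). The causes were not tested. Depth limits what can be read for Edn3 in LPS libraries (8 to 19 reads) and for Adm in saline libraries 2 to 4 (17 to 29 reads).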
